A study of Mus musculus with 4 samples.

Results

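The genes described here are 34 type I interferon-stimulated genes, whose transcripts were counted in immune cells of mouse tumours. They were named in a fixed list, chosen with earlier results of these data known. Of the 34 genes, 33 had a row in both deposited RNA tables, which hold 13071 and 12996 genes, and Mx2 is not analysed here. The cells came from tumours grown under the skin from LLC cells (Lewis lung carcinoma) or B16 cells (melanoma), profiled on the 10x Genomics platform, which tags each captured transcript with a unique molecular identifier (UMI). There were 3 RNA libraries, each from a pool of 3 mice, so every group is 1 library and no difference between tumours has a replicate. The LLC library came from F11r fl/fl LysM-Cre- mice, in which the floxed gene for the adhesion molecule JAM-A meets no Cre recombinase. The LLC_CITEseq library came from LLC tumours of C57BL/6J mice and was read for RNA and for antibody tags in the same cells. The B16 library came from B16 tumours of C57BL/6J mice. Tumour line and host strain therefore differ together between LLC and B16, and tumour line and library type differ together between LLC_CITEseq and B16, so these cannot be told apart. For the age of the mice, the dissociation and any sorting of cells, the sources used here give nothing.

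Type I interferons are secreted after cells sense foreign or misplaced nucleic acid. They bind a receptor formed by IFNAR1 and IFNAR2, whose kinases phosphorylate STAT proteins. STAT2 acts with IRF9 in the ISGF3 complex, which binds an interferon-stimulated response element in the promoters of a large set of genes. The products degrade viral RNA, block translation, trap virus particles or raise the sensitivity of the cell to further stimulation. Many of the same genes also respond to interferon gamma, for which IRF1 is a mediator, and tumour macrophages with such a programme are a recurrent finding in single-cell studies.

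The promoters of the listed genes were searched for the core of that element, read here as GAAANNGAAA on either strand, in the RefSeq window from 250 bases before to 50 bases after the start of each gene (GRCm38.p6, the mm10 build that the submitters name). A promoter row was found for 26 of the 34 genes, and 15 of these 26 held the motif (57.7%), beside 1079 of all 27025 genes with a row (3.99%). The count was 12 of 26 (46.2%), beside 3.46% of all genes, in the 250 bases before the start alone. With 1 base less (GAAANNGAA) it was 16 of 26 (61.5%), beside 9.76% of all genes. Rows were not found for Mx1, Mx2, Oas2, Usp18, Zbp1, Dhx58, Rtp4 and Parp14. A match of letters describes a sequence and shows no binding. The following lines give the 150 bases before the start of 5 genes that the results return to, in the direction of transcription, with every base of a match in capitals. The first 3 encode the ubiquitin-like protein ISG15 (chr4:156200819-156200968, minus strand), the RNA-binding protein IFIT1 (chr19:34640739-34640888, plus strand) and, from Rsad2, viperin (chr12:26456453-26456602, minus strand). The others encode the synthetase OAS1A (chr5:120907526-120907675, minus strand) and, from Bst2, the membrane protein tetherin (chr8:71537473-71537622, minus strand). All 5 hold a match in the stretch shown, whereas only 15 of the 26 searched promoters held the motif.
Isg15: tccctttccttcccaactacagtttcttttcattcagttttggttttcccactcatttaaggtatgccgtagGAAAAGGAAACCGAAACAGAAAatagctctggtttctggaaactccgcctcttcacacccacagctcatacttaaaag
Ifit1: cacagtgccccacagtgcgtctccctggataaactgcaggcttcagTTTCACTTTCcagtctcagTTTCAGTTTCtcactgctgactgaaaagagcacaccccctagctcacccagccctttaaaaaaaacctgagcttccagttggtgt
Rsad2: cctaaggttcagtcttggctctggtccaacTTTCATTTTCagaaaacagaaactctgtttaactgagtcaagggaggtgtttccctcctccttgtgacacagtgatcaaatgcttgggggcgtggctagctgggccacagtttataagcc
Oas1a: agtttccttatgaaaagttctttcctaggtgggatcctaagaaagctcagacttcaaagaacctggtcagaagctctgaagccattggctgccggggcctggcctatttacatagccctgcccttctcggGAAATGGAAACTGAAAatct
Bst2: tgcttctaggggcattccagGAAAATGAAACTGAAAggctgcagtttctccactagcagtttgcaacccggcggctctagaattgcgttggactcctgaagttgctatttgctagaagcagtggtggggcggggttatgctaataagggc
The Isg15 stretch holds 3 overlapping matches that begin 78, 72 and 66 bases before the start. Ifit1 has 2 separate matches on the other strand, beginning 104 and 85 bases before the start, and Rsad2 has 1 at 120, also on the other strand. Oas1a has 2 overlapping ones at 20 and 14, and Bst2 has 2 overlapping ones at 130 and 124. The 33 measured genes and Mx2 lie on 13 chromosomes, with 5 IFIT genes on chromosome 19 and 5 OAS genes on chromosome 5.

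The joint table of LLC and B16 held 13021 LLC cells (median 6174 UMIs per cell) and 6870 B16 cells (median 8315). The table of monocytes and tumour-associated macrophages (TAMs) held 8155 LLC, 10131 LLC_CITEseq and 2297 B16 cells, with medians of 6530, 4546 and 9250 UMIs. Levels are given as CPM, the UMIs of a gene per 1000000 UMIs of all genes, summed over the named cells of 1 library. A ratio carries an exact 95% interval that covers counting error only, and a gene is called higher or lower at 1.5-fold, a rule of size, when it has at least 20 UMIs over both sides. Between 5 and 29 cell barcodes were shared by a pair of libraries. In the monocyte and macrophage table the summed level of 6 macrophage markers was 11269 CPM in LLC, 13259 in LLC_CITEseq and 15275 in B16, and that of 6 neutrophil markers 437, 351 and 356 CPM. Markers of the compared classes were detected in them, except 2 of 4 B cell markers in LLC B cells and 1 of 5 cDC2 markers in LLC cDC2, which were at 0. Reads may be split between close copies in the pairs Ifit3 and Ifit3b and Ifit1 and Ifit1bl1, in the Phf11 genes and among the OAS genes, so the values of single copies are uncertain.

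In the joint table's monocytes and macrophages (9194 cells of LLC, 2742 of B16), transcripts of nearly every listed gene were more abundant in B16. Of the 33 genes, 29 were higher in B16 by at least 1.5-fold and 0 were lower, with a median ratio of 2.27. By the same rule 11.9% of the 11261 genes measured in these cells were higher in B16. The 4 genes between the limits were Ddx58 (ratio 1.44), Ifi35 (1.46), Trim30a (1.23) and Ifitm3 (0.81). The table of monocytes and macrophages, which holds many of the same LLC and B16 cells under other names, gave 29 of 33 higher in B16 than in LLC (11.9% of all genes) and 22 of 33 higher than in LLC_CITEseq (11.0% of all genes). Both ratios use the same B16 library. As the median over subsets with at least 50 cells in both libraries, the ratio passed 1.5-fold for 14 genes against LLC_CITEseq. The share of all genes is not given under that rule, so this count shows only how a call moved. LLC_CITEseq lay between the other libraries for most genes, and 8 of 33 were higher in it than in LLC (3.03% of all genes). The summed level of 6 tumour cell markers was 4.01 CPM in LLC, 4.35 in LLC_CITEseq and 46.4 in B16 in this table, and that of 4 CD8 T cell markers 0.95, 1.86 and 21.4 CPM. Their part in the result was not tested.

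**Figure D1:**
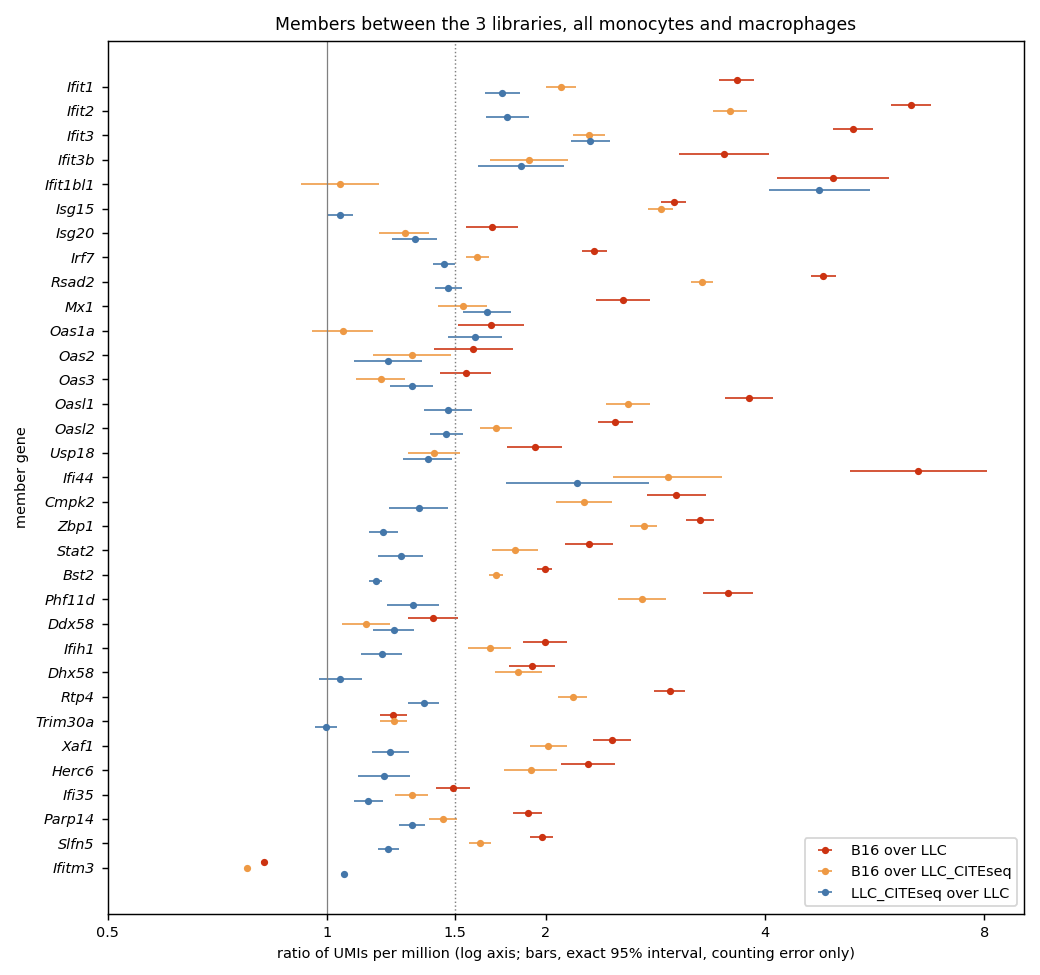
Ratio of each gene's level between libraries in all monocytes and macrophages, on a logarithmic axis, with points for the 3 pairs of libraries and bars for exact 95% intervals of counting error. Most B16 points lie right of 1.5-fold, Ifitm3 lies left of 1 in both B16 ratios, and 25 of 33 LLC_CITEseq over LLC points lie within 1.5-fold of 1.

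The IFIT family had the highest median log2 ratio of B16 over LLC among the roles (2.31), although the highest single ratio was that of Ifi44 (6.48). IFIT proteins bind viral RNA that lacks host cap methylation and block its translation. Ifit2 measured 22.3 CPM in LLC, 39.4 in LLC_CITEseq and 141 in B16, which is 6.34-fold (5.96 to 6.75) higher in B16 than in LLC and 3.58-fold (3.40 to 3.78) higher than in LLC_CITEseq. Ifit3, which stabilises the IFIT1 complex, measured 23.7, 54.5 and 125 CPM in the same order. Ifit1, whose promoter is printed above, measured 35.2, 61.3 and 129 CPM. In all of these B16 was highest and LLC lowest. Ifit1bl1 departed from this order, at 3.12 CPM in LLC, 14.8 in LLC_CITEseq and 15.5 in B16, so that the B16 to LLC_CITEseq ratio was 1.04 (0.92 to 1.18) and the LLC_CITEseq to LLC ratio was 4.75 (4.06 to 5.58). Ifit3b measured 5.46, 10.1 and 19.2 CPM. All 5 IFIT genes were higher in LLC_CITEseq than in LLC, beside Ifi44 (2.21-fold), Mx1 (1.66) and Oas1a (1.60). The 5 IFIT genes thus make up most of the 8 genes that passed 1.5-fold between the LLC libraries.

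Isg15 encodes a ubiquitin-like modifier that is conjugated to newly made proteins, Herc6 its main conjugating ligase in mice, and Usp18 the protease that removes it and also dampens IFNAR signalling. Isg15 measured 76.3 CPM in LLC, 79.6 in LLC_CITEseq and 229 in B16. Its level was nearly equal in the LLC libraries (ratio 1.04, 1.001 to 1.09) and 3.00-fold (2.88 to 3.11) higher in B16 than in LLC. Herc6 measured 18.0, 21.6 and 41.2 CPM, and Usp18 19.3, 26.6 and 37.2 CPM. Usp18 passed 1.5-fold against LLC (1.93) but not against LLC_CITEseq (1.40).

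Among the enzymes, Rsad2 encodes viperin, which makes a chain-terminating nucleotide, and its neighbour Cmpk2 the kinase that supplies the substrate. Rsad2 measured 62.7 CPM in LLC, 92.1 in LLC_CITEseq and 302 in B16, 4.81-fold (4.63 to 5.002) higher in B16 than in LLC. Cmpk2 measured 13.2, 17.7 and 39.9 CPM, in the same order. The OAS enzymes make the second messenger that activates RNase L, while OASL1 belongs to the family but lacks that activity. Oas1a (14.5, 23.1 and 24.3 CPM), Oas2 (10.6, 12.9 and 16.8) and Oas3 (25.5, 33.3 and 39.5) were 1.55 to 1.68-fold higher in B16 than in LLC, and none of these 3 passed 1.5-fold against LLC_CITEseq. Oasl1, at 18.7, 27.4 and 70.9 CPM, was 3.80-fold (3.53 to 4.10) and 2.59-fold (2.42 to 2.78) higher in B16. Oasl2, at 41.4, 60.4 and 103 CPM, was 2.49-fold and 1.71-fold higher. Oas1a, Oas2 and Oas3 therefore lay near the limit while Oasl1 and Oasl2 were past it. Mx1, a dynamin-like GTPase that blocks viral ribonucleoproteins, measured 17.6, 29.2 and 45.0 CPM, and the exonuclease gene Isg20 measured 23.3, 30.8 and 39.3 CPM.

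The membrane proteins did not move together. Bst2 encodes tetherin, which holds budding virus at the cell surface. It measured 253 CPM in LLC, 295 in LLC_CITEseq and 504 in B16, a 1.99-fold (1.95 to 2.04) difference between B16 and LLC. Rtp4, a chaperone of membrane receptors, measured 48.0, 65.2 and 142 CPM. Ifitm3, which keeps virus from fusing with endosomes, went the other way at 2926, 3086 and 2401 CPM, a B16 to LLC ratio of 0.82 (0.81 to 0.83) that stays inside the 1.5-fold limits.

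Of the nucleic acid sensors, Zbp1, which senses left-handed nucleic acid and can start necroptosis, measured 55.3 CPM in LLC, 66.1 in LLC_CITEseq and 180 in B16. Ifih1, the gene of the RNA helicase MDA5, measured 29.3, 34.9 and 58.5 CPM, and Dhx58, the gene of the related LGP2, 26.7, 27.9 and 51.1 CPM. Ddx58, the gene of RIG-I, measured 28.2, 34.8 and 39.5 CPM and did not pass 1.5-fold in any pair of libraries. The sensors thus ranged from 1.40-fold for Ddx58 to 3.26-fold for Zbp1 in B16 over LLC. Of the transcription factors, Irf7, which amplifies interferon alpha production, measured 86.7, 126 and 202 CPM, and Stat2, a part of ISGF3, 23.5, 29.6 and 53.8 CPM. Among the remaining genes Phf11d measured 17.3, 22.7 and 61.5 CPM and Ifi44 1.92, 4.24 and 12.5 CPM, in the order LLC, LLC_CITEseq and B16. Xaf1, Parp14 and Slfn5 were 1.89 to 2.47-fold higher in B16 than in LLC, with Slfn5 at 111, 135 and 219 CPM. The ubiquitin ligase gene Trim30a, at 104, 104 and 129 CPM, stayed within 1.5-fold in every pair, as did Ifi35 at 59.1, 67.4 and 88.2 CPM.

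In the authors' annotation 1 subset of monocytes and macrophages, named Mono/TAM IFN, carries much of this expression. Its cells were clustered on genes that include these, so what follows on levels inside and outside it is a description. It made up 5.36% of LLC cells (437 cells, exact interval 4.88 to 5.87%), 8.47% of LLC_CITEseq cells (858, 7.93 to 9.03%) and 6.88% of B16 cells (158, 5.88 to 7.99%). All 33 genes were at least 1.5-fold higher in it than in the other cells of the same library, where 8.59% of all genes in LLC, 7.82% in LLC_CITEseq and 11.2% in B16 passed the same limit. The median ratio over the 33 genes was 12.6 in LLC, 7.83 in LLC_CITEseq and 5.75 in B16. The lowest was Ifitm3 in both LLC libraries (2.13 and 1.92) and Bst2 in B16 (2.51). When each cell was thinned to 2000 UMIs, 10 or more of 31 genes (without Bst2 and Ifitm3) were detected in 58.3% of these cells in LLC, 53.7% in LLC_CITEseq and 77.4% in B16.

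The subset held a smaller part of the transcripts in B16 than in the LLC libraries. Of all Rsad2 UMIs in monocytes and macrophages, 85.8% in LLC and 81.6% in LLC_CITEseq lay in Mono/TAM IFN cells, and 45.3% in B16. For Ifit3 the parts were 89.2%, 82.6% and 42.1%, and for Isg15 64.7%, 59.9% and 34.4%. The subset held 4.8%, 7.7% and 5.4% of the UMIs of all genes in the same libraries. The parts were close to each other for Isg20 (47.3%, 52.8% and 48.8%) and Ifit1bl1 (94.8%, 88.4% and 83.6%). Ifitm3 stood at 9.7%, 13.8% and 12.8%, the lowest part in both LLC libraries, while Bst2 was lowest in B16 at 12.5%.

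**Figure D2:**
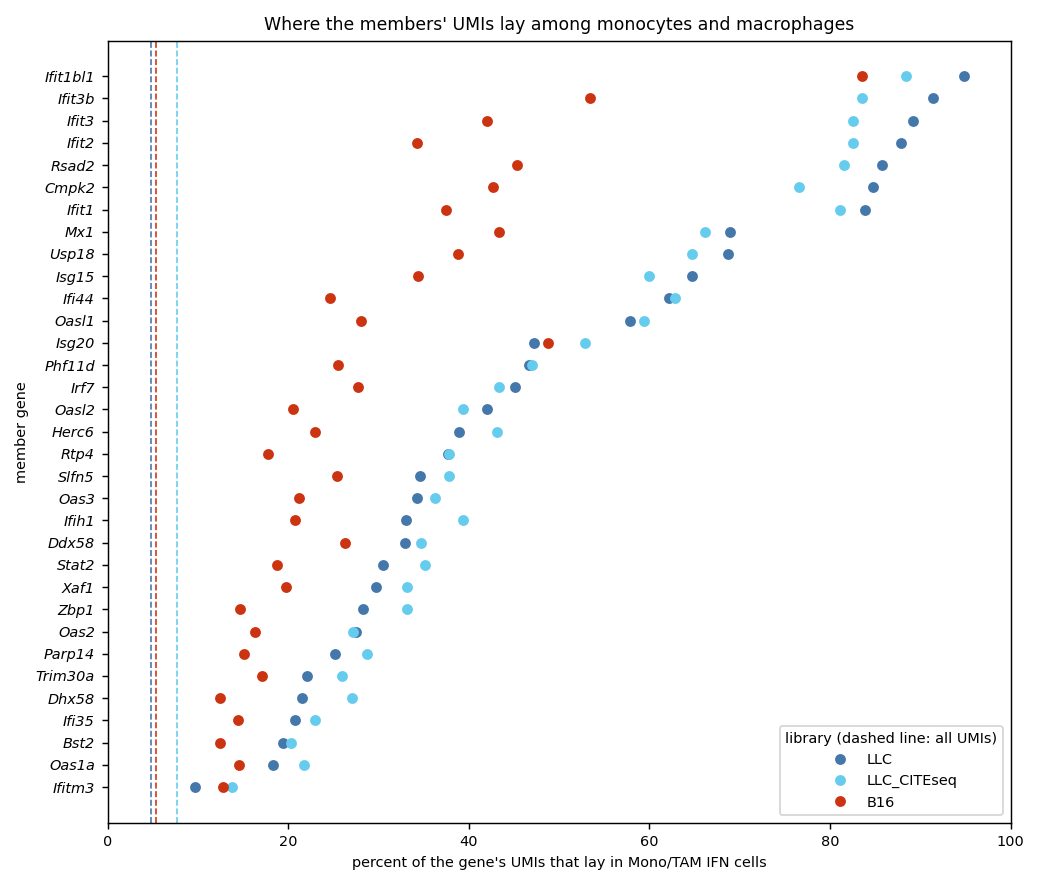
Percent of each gene's UMIs in monocytes and macrophages that lay in Mono/TAM IFN cells, one point per library, with dashed lines for the UMIs of all genes. For most genes the B16 point lies left of both LLC points, as for Rsad2 at 45.3% against 85.8% and 81.6%.

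Outside the Mono/TAM IFN subset B16 lay further from both LLC libraries by the median ratio. It was 3.08 over LLC, beside 2.33 in all cells, and 2.22 over LLC_CITEseq, beside 1.71. For LLC_CITEseq over LLC it was 1.31 in both cases. The subset was clustered on genes that include these, so values inside and outside it are descriptions. Rsad2 measured 9.34 CPM in the other LLC cells, 18.4 in the other LLC_CITEseq cells and 174 in the other B16 cells, 18.7-fold (17.1 to 20.4) higher in B16 than in LLC. Ifit3 measured 2.68, 10.3 and 76.4 CPM, and Isg15 28.3, 34.6 and 159 CPM. Without that subset 31 of 33 genes were higher in B16 than in LLC (12.3% of all genes), with a median ratio of 3.08, and the exceptions were Trim30a and Ifitm3. Against LLC_CITEseq 24 of 33 were higher (11.4% of all genes). LLC_CITEseq exceeded LLC for 13 of 33 (3.07% of all genes). Inside the subset fewer genes differed: 10 of 33 were higher in B16 than in LLC (8.09% of all genes) and 14 of 33 higher than in LLC_CITEseq (8.52% of all genes). Here Rsad2 measured 1117 CPM in LLC, 979 in LLC_CITEseq and 2544 in B16, while Isg15 measured 1025, 622 and 1465 CPM. Between the LLC libraries 1 gene was higher in LLC_CITEseq (Ifit1bl1, 2.78-fold, where 7.21% of all genes were higher) and 1 lower (Isg15, ratio 0.61, where 4.17% of all genes were lower). The median log2 ratio of all genes in this subset was -0.19 for B16 over LLC and -0.22 for B16 over LLC_CITEseq.

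Among the other subsets shared by the tumours, Monocytes and Mono/TAM Hypoxic cells also held more of these transcripts in B16 than in LLC, at lower levels. In cells named Monocytes, 25 of 31 measured genes were higher in B16 than in LLC (10.3% of all genes), 9 of 32 higher than in LLC_CITEseq (10.3%) and 15 of 31 higher in LLC_CITEseq than in LLC (5.22%). Rsad2 there measured 10.1 CPM in LLC, 26.4 in LLC_CITEseq and 52.8 in B16. Monocytes of LLC_CITEseq thus lay between the others. In cells named Mono/TAM Hypoxic, 27 of 30 genes were higher in B16 than in LLC (12.6% of all genes), 24 of 30 higher than in LLC_CITEseq (10.5%) and 17 of 30 higher in LLC_CITEseq than in LLC (10.4%). The last count was 7 after thinning to 2000 UMIs and 11 with a minimum of 50 UMIs, without a share of all genes at these settings. Median depths were 2945 UMIs in LLC_CITEseq and 4703 in LLC. Isg15 in these cells measured 38.2, 44.1 and 235 CPM. Immature TAM-1, with 518 B16 and 76 LLC_CITEseq cells, did not follow: 4 of 31 genes were higher in B16 (18.9% of all genes) and 3 lower (13.2% of all genes), and Ifit1 measured 80.6 CPM in LLC_CITEseq and 42.0 in B16. The mix of subsets was not the same in the tumours: TAM-1 of this table had at least 50 cells in B16 only (941 cells), and TAM-2, TAM-3 and TAM-4 had at least 50 cells in the LLC libraries only. B16 TAM-1 held Rsad2 at 248 CPM, while the LLC and LLC_CITEseq levels in TAM-2 to TAM-4 ran from 3.90 to 13.7 CPM. After thinning, 7.52% of TAM-1 cells had 10 or more of the 31 genes, while in TAM-2 to TAM-4 of the LLC libraries the share ran from 0 of 2246 cells (TAM-3 of LLC_CITEseq, interval up to 0.16%) to 0.44% (TAM-4 of LLC).

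Across all cells of the joint table the cluster with the highest level varied by gene and by library. Clusters with at least 50 cells were ordered by level for each gene, 16 in LLC and 19 in B16. The sets of clusters thus differed, and plasmacytoid dendritic cells of LLC (21 cells) were not ranked. In LLC 30 of 33 genes were highest in the cluster Imm TAM-3, and Rtp4, Trim30a and Isg20 were highest in a neutrophil cluster. In B16 15 genes were highest in Imm TAM-3, 13 in a neutrophil cluster, and 5 elsewhere. Imm TAM-3 was itself mixed: 340 of its 426 LLC cells and 147 of its 637 B16 cells were also named Mono/TAM IFN. The part of this in the order was not tested. The first and second places did not always stand apart. In B16 Isg15 measured 813 CPM in Neutrophil-2 and 652 in Neutrophil-1, a ratio of 1.25 (0.998 to 1.55). In LLC it measured 1100 CPM in Imm TAM-3 and 438 in Neutrophil-1, a ratio of 2.51 (2.30 to 2.75). The B16 ratio of first to second was 1.07 (0.79 to 1.49) for Ifit1 and 2.09 (1.83 to 2.39) for Rsad2. Bst2 was highest in plasmacytoid dendritic cells of B16, at 3472 CPM against 571 in Imm TAM-3. Stat2 measured 91.7 CPM in the same cells and 86.0 in Imm TAM-3, a ratio of 1.07 (0.85 to 1.33). Plasmacytoid dendritic cells are the main producers of interferon alpha and carry tetherin constitutively. Ifitm3 was highest in B16 Monocytes at 5921 CPM and lowest in naive T cells in both libraries (125 CPM in B16, 263 in LLC). Isg20, which lymphocytes also express, reached 333 CPM in the regulatory T cell cluster Tregs-1 of B16.

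**Figure D3:**
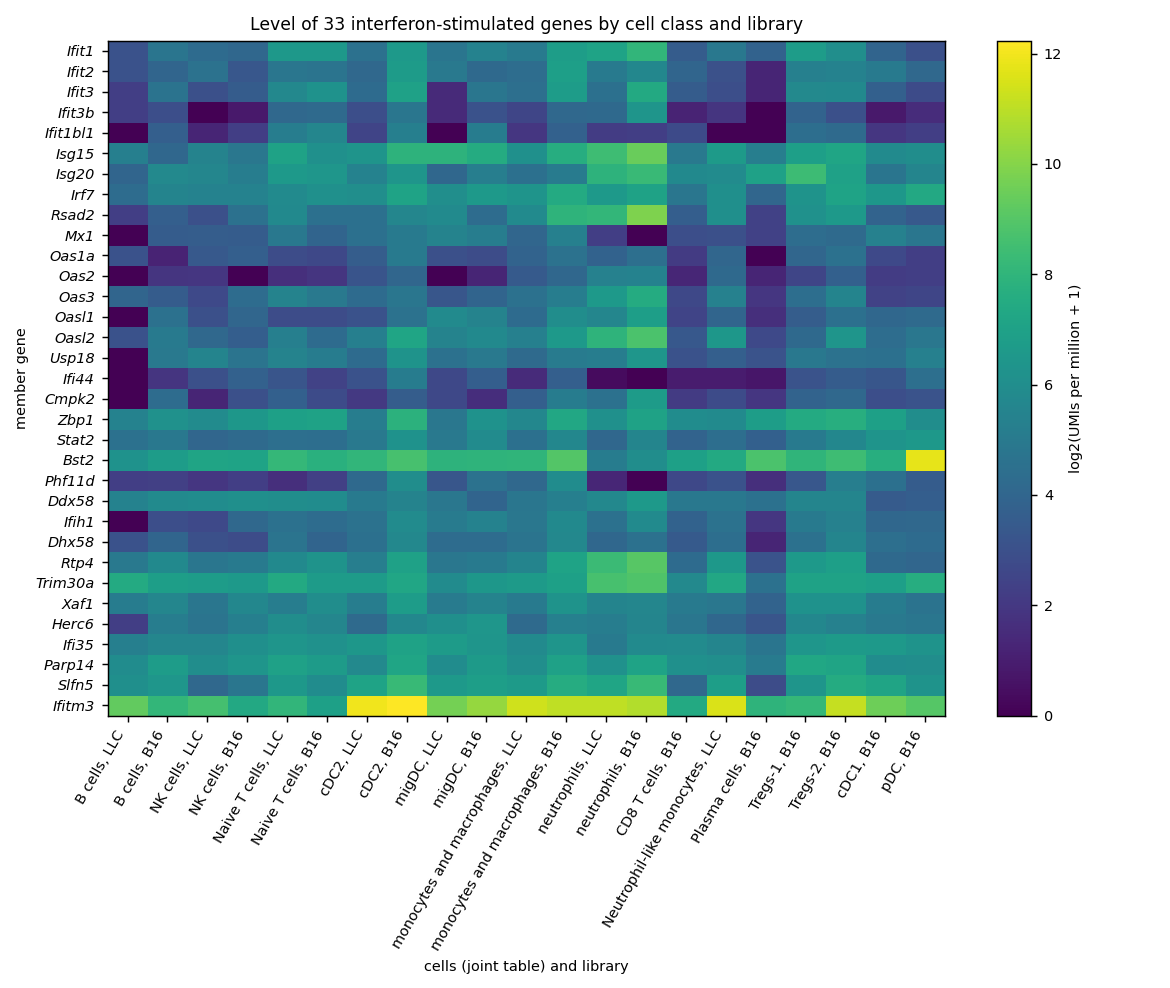
Level of the 33 genes in each cell class and library of the joint table, as log2 of CPM plus 1, with genes grouped by role. Brighter colours stand for higher levels. Monocytes and macrophages, cDC2 and neutrophils of B16 are brighter than those of LLC in most rows, and lymphocyte columns are dark except for a few genes.

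The cluster Imm TAM-3 went against the other macrophage clusters. It held 426 LLC and 637 B16 cells, and 26 of 33 genes were lower in B16 by at least 1.5-fold while 0 were higher (11.6% of all genes were lower there), with a median ratio of 0.55. Isg15 measured 1100 CPM in LLC and 542 in B16, Rsad2 1263 and 722, and Usp18 282 and 86.8. These values are the reverse of those in the whole class. The cells joined under this name were not alike in the other annotation: 340 of the 426 LLC cells were named Mono/TAM IFN, against 147 of the 637 B16 cells, of which 401 were named Immature TAM-1. Restricted to the cells named Mono/TAM IFN, 0 genes were lower and 7 of 33 were higher in B16 (8.49% of all genes). Rsad2 measured 1390 CPM in LLC and 2722 in B16 there, and Isg15 1220 and 1511 CPM. That name comes from clusters made on genes that include these, so the restricted values are a description. In the clusters of the joint table named Monocytes 24 of 31 genes were higher in B16 (11.2% of all genes), in Imm TAM-2 24 of 29 (9.42%) and in Imm TAM-4 16 of 30 (10.7%).

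Among other myeloid cells, cDC2 and neutrophils of B16 also held more of these transcripts. In cDC2, the type 2 conventional dendritic cells (314 LLC and 166 B16 cells), which prime CD4 T cells, 28 of 33 genes were higher in B16 and 0 lower, with a median ratio of 2.76 (9.48% of all genes were higher). Ifit3 measured 18.6 CPM in LLC and 125 in B16, 6.73-fold (4.92 to 9.37), Zbp1 35.3 and 228, and Isg15 78.8 and 236. All 3 genes were thus higher in cDC2 of B16, while Ifitm3, at 3949 and 4812 CPM, stayed within 1.5-fold. In neutrophils (1955 LLC and 299 B16 cells) 21 of 29 measured genes were higher in B16 and 0 lower, where 30.9% of all genes were higher and the median log2 ratio of all genes was 0.25. Rsad2 measured 269 CPM in LLC and 932 in B16, Isg15 346 and 700, and Ifit3 21.8 and 170. Neutrophils were shallow, with median depths of 1492 and 1700 UMIs. Mx1 had 13 UMIs in LLC neutrophils (3.78 CPM) and 0 in B16 neutrophils, which allows up to 5.72 CPM, so no difference was detectable at this depth. In migratory dendritic cells (migDC, 88 LLC and 156 B16 cells) 11 of 29 genes were higher (15.0% of all genes) and 3 lower (12.7% of all genes). After thinning to 2000 UMIs 6 were higher, a count for which the share of all genes is not given. Rsad2, 1 of the lower genes, measured 56.3 CPM in LLC migDC and 19.3 in B16, a ratio of 0.34 (0.20 to 0.59). The summed level of 6 neutrophil markers was 635 CPM in LLC and 24.1 in B16 in migDC, and 994 and 21.6 CPM in cDC2, and its part in these results was not tested. Ifit1bl1 had 49 UMIs in B16 migDC and 0 in LLC, which is at least 6.39-fold higher against a floor of 3 counts.

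**Figure D4:**
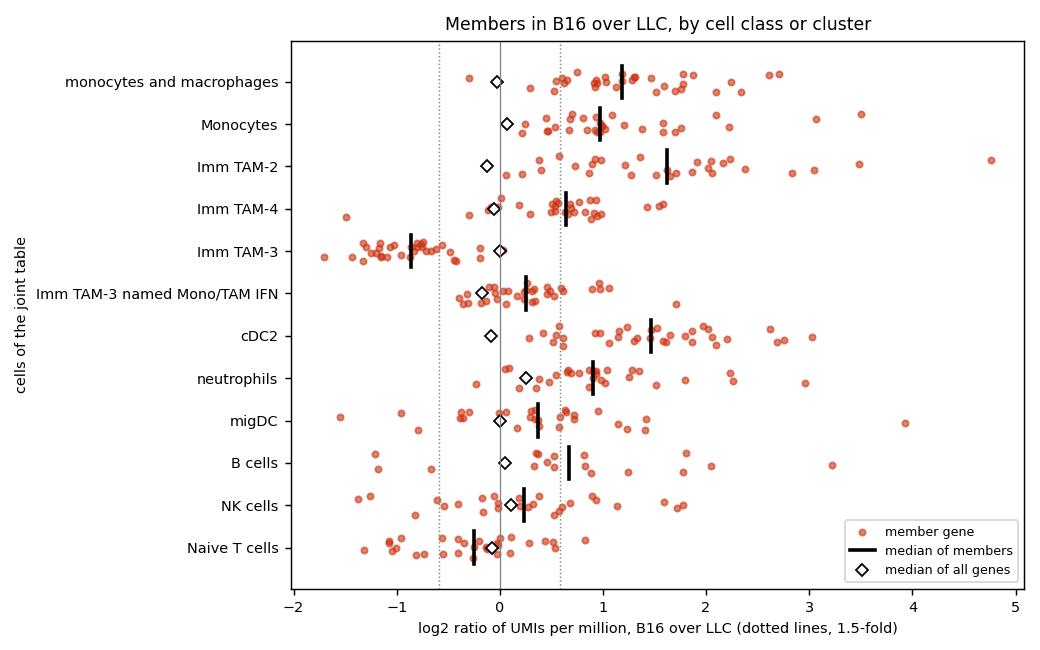
Log2 ratio of B16 over LLC for each measured gene (points) in classes and macrophage clusters of the joint table, with a black bar for the median of the listed genes, a diamond for the median of all genes and dotted lines at 1.5-fold. Medians lie above all genes in myeloid classes, below them in Imm TAM-3 and naive T cells, and genes with 0 UMIs on a side are not drawn.

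In the 3 lymphocyte classes between 18 and 29 of the 33 genes were measured. In naive T cells (185 LLC and 743 B16 cells) 8 of 29 genes were lower in B16 (15.5% of all genes were lower) and 1 was higher, Xaf1 (11.4% of all genes were higher). Isg15 measured 134 CPM in LLC and 68.7 in B16, a ratio of 0.51 (0.39 to 0.69), Rsad2 54.2 and 21.8, and Ifitm3 263 and 125. In NK cells (131 LLC and 276 B16 cells) 8 of 26 genes were higher in B16 (15.5% of all genes) and 4 lower (9.31% of all genes), among them Ifitm3 at 397 CPM in LLC and 166 in B16. In B cells (102 LLC and 220 B16 cells) 9 of 18 were higher (17.6% of all genes) and 3 lower (13.8% of all genes), and Zbp1 measured 41.3 CPM in LLC and 72.9 in B16, a ratio of 1.76 with an interval of 0.91 to 3.74. Usp18 had 22 UMIs in B16 B cells and 0 in LLC, at least 2.64-fold higher against the floor of 3 counts. After each cell was thinned to 2000 UMIs, 1 gene was higher in NK cells and 0 in B cells. The share of all genes is not given for these thinned counts. The summed level of 6 neutrophil markers in naive T cells was 1909 CPM in LLC and 611 in B16, in NK cells 2028 and 107, and in B cells 8502 and 737. Its part in the result was not tested.

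A larger share of monocytes and macrophages had these transcripts detected in B16. After thinning to 2000 UMIs, Rsad2 was detected in 3.92% of LLC monocytes and macrophages (exact interval 3.53 to 4.34%) and 14.0% of those of B16 (12.7 to 15.3%), and in 7.04% and 27.4% before thinning at median depths of 6944 and 10188 UMIs. In B cells, which should hold little viperin message, it was detected in 0 of 42 LLC cells (interval up to 8.41%) and 1.76% of B16 cells after thinning. The macrophage shares of B16 thus lay above that level. Isg15 was detected in 8.51% and 23.9% of monocytes and macrophages after thinning. A median of 2 of the 33 genes was detected per thinned LLC cell and 4 per B16 cell. In neutrophils Rsad2 was detected in 17.6% of 505 LLC and 37.2% of 86 B16 cells, after 1450 and 213 shallower cells were left out.

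Within the B16 library alone, whose cells have an annotation of their own, macrophages named Mac-2 and Mac-1 differed. Of 33 genes 26 were higher in Mac-2 and 0 lower, with a median ratio of 2.53 (10.2% of all genes were higher). Rsad2 measured 30.9 CPM in Mac-1 and 779 in Mac-2, 25.2-fold, Ifit1 26.5 and 337, and Cmpk2 7.41 and 89.3. The clusters were made from genes that include these, so these levels are a description. Zbp1 (114 and 100 CPM) and Ifi35 (67.3 and 64.6) were level between the clusters. Of the Mac-2 cells present in the table of monocytes and macrophages, 306 were named TAM-1 there and 6 Mono/TAM IFN.

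Around the listed genes, the ligands, receptors and other parts of the pathway were read from lists grouped by function. These lists were chosen with earlier results of these data known. Of 11 interferon ligand genes 2 had a row. Ifnb1, the gene of interferon beta, had 227 UMIs in B16 monocytes and macrophages and 0 in the LLC library, where it is listed at 0 in every cell, so no ratio was formed. None of 8 receptor and kinase genes was called in these cells, where 11.9% of all genes were higher in B16 and 11.9% lower. Ifnar1 measured 97.2 CPM in LLC and 68.0 in B16, a ratio of 0.70. Of the interferon regulatory factors outside the list, Irf1 measured 22.1 CPM in LLC and 111 in B16 (5.002-fold), Irf8 was 1.61-fold higher in B16, and Irf9, the partner of STAT2 in ISGF3, had a ratio of 1.29. Of 10 measured sensors and adaptors 3 were higher in B16 (11.9% of all genes), among them Tmem173, the gene of STING (37.6 and 75.9 CPM). Of 6 negative regulators 2 were higher, among them Socs1 (9.11 and 58.8 CPM). The counts on these short lists are not read as a result. All 16 measured targets of interferon gamma were higher in B16 (11.9% of all genes), with a median log2 ratio of 2.36, beside 1.18 for the 33 genes. Cxcl9, a chemokine that draws T cells, measured 20.5 CPM in LLC and 1075 in B16. Ifng had 5 UMIs in LLC and 127 in B16 monocytes and macrophages. The genes listed here respond to interferon gamma as well, so the type of interferon cannot be told apart from these levels.

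Over 24 combinations of subset and library with at least 50 cells, the level of each listed gene was compared with the mean of the others on a log scale. Pearson correlations ran from 0.87 for Zbp1 to 0.99 for Stat2, and Ifitm3 stood at 0.49. The points share 3 libraries and their depth. They include Mono/TAM IFN, whose cells were clustered on genes that include these and where all but Ifitm3 were highest. The correlations are therefore descriptions. Among 4089 other genes the most alike were Daxx (0.98), Phf11a (0.98), Phf11b (0.97), Tor3a (0.97), Parp10 (0.97), March5 (0.97), Ube2l6 (0.96), Dtx3l (0.96), Dck (0.96) and Rnf213 (0.96). Ube2l6 encodes the conjugating enzyme for ISG15. Phf11a and Phf11b are close copies of Phf11d.

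One listed gene could be read as protein. The LLC_CITEseq cells carried 172 antibody tags, of which 9 were isotype controls, and the CD317 tag binds tetherin, the product of Bst2. CD317 measured 3.52 per 1000 tag UMIs in Mono/TAM IFN cells and 1.42 in the other cells, 2.48-fold (2.36 to 2.60), at median tag depths of 510 and 540 UMIs per cell. The next subset was Immature TAM-1 at 2.04 (1.67 to 2.47), then Monocytes at 1.77 (1.62 to 1.93), whose intervals overlap, and the lowest was Mono/TAM Hypoxic at 1.01. With the mean isotype tag subtracted, the lowest was Immature TAM-3 at 0.85, below Mono/TAM Hypoxic at 0.88. As UMIs per cell with the isotype mean subtracted, CD317 was 2.31 in Mono/TAM IFN and 1.32 in TAM-4. It was 0.97 in Immature TAM-3, 0.54 in Monocytes and 0.49 in Mono/TAM Hypoxic. The order below Mono/TAM IFN thus depended on the scale. Bst2 RNA in the same library was also highest in Mono/TAM IFN cells, at 780 CPM, then in Immature TAM-1 at 328, and was 158 CPM in Mono/TAM Hypoxic. The tag for Ly6A and Ly6E, which are induced by interferon in many cells, measured 13.8 per 1000 in Mono/TAM IFN cells and 5.18 in the others, 2.66-fold. It was nearly as high in Immature TAM-1 (76 cells), at 12.9 (11.9 to 13.9), an interval that overlaps that of Mono/TAM IFN (13.5 to 14.1). The next subset was TAM-3 at 7.41. CD86 measured 23.8 and 23.4 per 1000, and CD169 1.23 and 1.31.

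**Figure D5:**
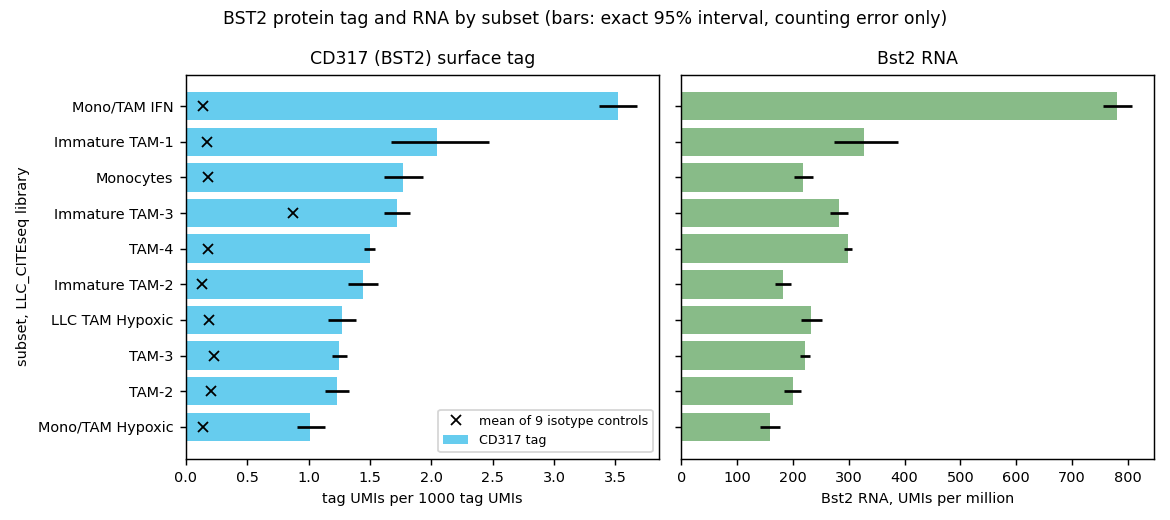
CD317 tag per 1000 tag UMIs and Bst2 RNA in CPM, by subset of LLC_CITEseq monocytes and macrophages. Horizontal bars give the levels with exact 95% counting intervals, and crosses give the mean isotype tag. The CD317 tag and Bst2 RNA are highest in Mono/TAM IFN cells, at 3.52 per 1000 and 780 CPM.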

How the data were processed

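Cell Ranger and the mm10 build are named in the submitters' processing notes, with no version. The authors deposited raw UMI counts per gene and cell, and antibody tag counts for LLC_CITEseq, after filters whose limits the sources used here do not give. Cell names are the authors' deposited annotation and were not redone. Monocyte and macrophage clusters of the joint table were merged into 1 class.

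UMIs were summed per library and cell group (scipy 1.17.1, pandas 2.3.3). Ratios needed 50 cells per side and carry exact conditional binomial 95% intervals. Shares carry Clopper-Pearson intervals. Intervals and the floor of 3 counts cover counting error only. No test or p-value was computed, because a group is 1 library. The calling rule was checked on simulated data. The automatic doublet call of Scrublet (scanpy 1.11.5) marked 1 cell in LLC and 0 in B16, so it had not worked, and cells were kept. A gene at 0 throughout a library entered no ratio with that library. The members and lists were chosen with earlier results of these data known. All measured members were read. Other genes named come from the pathway lists or are the 10 most alike in level across subsets, by Pearson correlation of log2(CPM + 10).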

Additional observations from a re-analysis of the deposited data

Results flagged for a closer look

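The median log2 ratio of B16 over LLC was -0.87 in the cluster Imm TAM-3, against 1.18 in all monocytes and macrophages, so the listed genes lay on opposite sides of equal expression. The median log2 ratio in naive T cells was -0.25, against the same 1.18. Neither difference was tested, since each group is 1 library. In Imm TAM-3 the share of cells also named Mono/TAM IFN differed between the libraries (340 of 426 in LLC, 147 of 637 in B16), and in naive T cells the summed level of neutrophil markers was 1909 CPM in LLC and 611 in B16. The part of these in the results was not tested. Imm TAM-3 cells named Mono/TAM IFN had 0 genes lower in B16. That name comes from clusters made on genes that include these, so this count is a description.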

How the results depend on the processing

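Each count was recomputed with other settings, and 187 of 228 recomputed values stayed within 1.5 times the count given or, for a share or ratio, within its interval. The share of all genes is not given at those settings, so a recomputed count shows only how a call moved. Of 593 recomputed log2 ratios of single genes, 6 changed sign. With a limit of 2-fold the genes higher in B16 than in LLC fell to 10 in neutrophils, 6 in migDC, 4 in NK cells, 12 in Monocytes and 3 in Imm TAM-4, and the lower ones to 5 in naive T cells and 14 in Imm TAM-3. In the monocyte and macrophage table a limit of 2-fold left 19 higher in B16 than in LLC in all cells, 5 in Mono/TAM IFN and 12 in Monocytes. Against LLC_CITEseq it left 12, 4 and 5, and in Immature TAM-1 1 of 4. Between the LLC libraries it left 3 in all cells, 7 in Monocytes and 6 in Mono/TAM Hypoxic.

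Thinning cells to 2000 UMIs left 0 in B cells, 1 in NK cells, 6 in migDC and, between the LLC libraries, 7 in Mono/TAM Hypoxic and 2 in Mono/TAM IFN. A minimum of 50 UMIs left 2 in B cells, 2 in NK cells, 6 in migDC and 11 in Mono/TAM Hypoxic between the LLC libraries, and a minimum of 10 gave 15 in B cells. Without the highest 6% of doublet scores 5 remained in B cells by count. The mean of CPM over cells gave 9 in Mono/TAM IFN of B16 over LLC_CITEseq and 2 between the LLC libraries. The median over subsets gave 14 for B16 over LLC_CITEseq and 13 between the LLC libraries, which was also 13 without Mono/TAM IFN cells. Zbp1 changed to a log2 ratio of -0.077 in B cells with the mean over cells and to -0.035 in migDC with thinning. The cause of these was not tested.

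In Imm TAM-3 cells also named Mono/TAM IFN, an alternative chosen after seeing the data, 0 genes were lower and the log2 ratio was 0.89 for Ifit3, 0.97 for Rsad2, 0.31 for Isg15 and 0.081 for Bst2. At the deposited depth Rsad2 was detected in 7.04% (LLC) and 27.4% (B16) of monocytes and macrophages, and in 2.90% and 10.6% after thinning to 1000 UMIs, which gave 12.02% and 24.9% in neutrophils. Subtracting the isotype mean gave a CD317 ratio of 2.88. No paired analysis was possible because the groups hold 1 library each.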
